A study of Mus musculus with 10 samples.

Results

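The 10 genes described here encode proteins of fast-twitch skeletal muscle fibers: Actn3, Mybpc2, Tnnc2, Tnni2, Tnnt3, Myh1, Myh2, Myh4, Mylk2 and Pvalb. They were chosen by name, with no rule on their measured values, out of 21098 genes in a count table from mouse gastrocnemius muscle (GAS). Earlier results of these data were known when they were chosen. All 10 libraries came from wild-type male C57BL/6J mice with diet-induced obesity (DIO), which received a high-fat diet from 9 weeks of age, for 9 weeks before treatment, and are described as 30 weeks old, although the stated ages and times sum to 32 weeks. The 5 treated mice received an antisense oligonucleotide against miR-22 (anti-miR-22 ASO, also labelled RES-010) at 10 mg/kg once a week for 14 weeks. The 5 control mice (CTRL) received matched volumes of saline on the same schedule. No oligonucleotide with a scrambled sequence was included, so effects of the compound's chemistry and of miR-22 inhibition cannot be told apart. The body weights listed by the authors were higher in the treated group than in CTRL at the first time point, with overlap. The part of starting weight in the group differences was not tested.

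Fast fibers contract and relax quickly because their sarcomeres carry their own versions of the motor, the calcium switch and the scaffold. Myosin heavy chains (Myh4 for type IIB, Myh1 for type IIX, Myh2 for type IIA) pull on thin filaments that are gated by the troponin complex, of which Tnnc2 binds calcium, Tnni2 inhibits and Tnnt3 anchors to tropomyosin. Actn3 crosslinks thin filaments at the Z-disc, Mybpc2 is the fast myosin-binding protein C of the thick filament, Mylk2 is the kinase that phosphorylates the myosin regulatory light chain, and Pvalb is a calcium buffer of the cytosol that speeds relaxation.

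The table counts reads only on the last 500 bp at most of each annotated 3′UTR, once per transcript, and this decided which of the 10 genes could be measured. Positions are on GRCm39. Actn3, Mybpc2, Tnnc2 and Mylk2 each had 1 segment that no other segment overlapped. Actn3 was counted on 129 bp in the last of 21 exons (chr19:4911244-4911372, minus strand) and held 122239 counts over the 10 libraries. Mybpc2 was counted on 133 bp in the last of 28 exons (chr7:44151123-44151255, minus strand), with 78538 counts. Tnnc2 was counted on 141 bp in the last of 6 exons (chr2:164619081-164619221, minus strand), with 390480 counts. Mylk2 was counted on 500 bp in the last of 12 exons (chr2:152764489-152764988, plus strand), with 48191 counts. These 4 genes were therefore measured through the whole of their counted sequence.

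The remaining 6 genes had several segments that lay on top of each other. Pvalb had 2 segments shifted by 3 bp (chr15:78075314-78075813 and chr15:78075317-78075816, minus strand), so that 6 of its 503 bp, or 1.19%, lay in a single segment. It nevertheless held 16277 counts, 16272 of them on the second segment, which shares 497 of its 500 bp with the first. Which bases these reads touched was not tested, so the Pvalb values below cannot be taken as a measure over 500 bp. Myh4 had 41 of 106 bp in a single segment (chr11:67151167-67151272, plus strand) and 42 counts in all. The other fast myosins, its neighbours on chromosome 11, had almost no sequence of their own, with 3 of 129 bp for Myh2 (chr11:67088215-67088343, 7 counts) and 2 of 106 bp for Myh1 (chr11:67115296-67115401, 1 count). The inhibitory and tropomyosin-binding troponins were not measured either. Tnni2 had 5 of 100 bp in a single segment (chr7:141998048-141998147, 4 counts), and none of the 178 bp under the 11 segments of Tnnt3 (chr7:142069568-142069745) was free of overlap, with 0 counts. Over all genes, 14.0% had at most 6 such bases, against 5 of the 10 fast genes. A count near 0 for Tnni2, Tnnt3, Myh1 or Myh2 is thus no measure of how much of their mRNA the muscle held. Nor are the 42 counts of Myh4, which shares 65 of its 106 bp, a measure of its level against other genes.

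**Figure D1:**
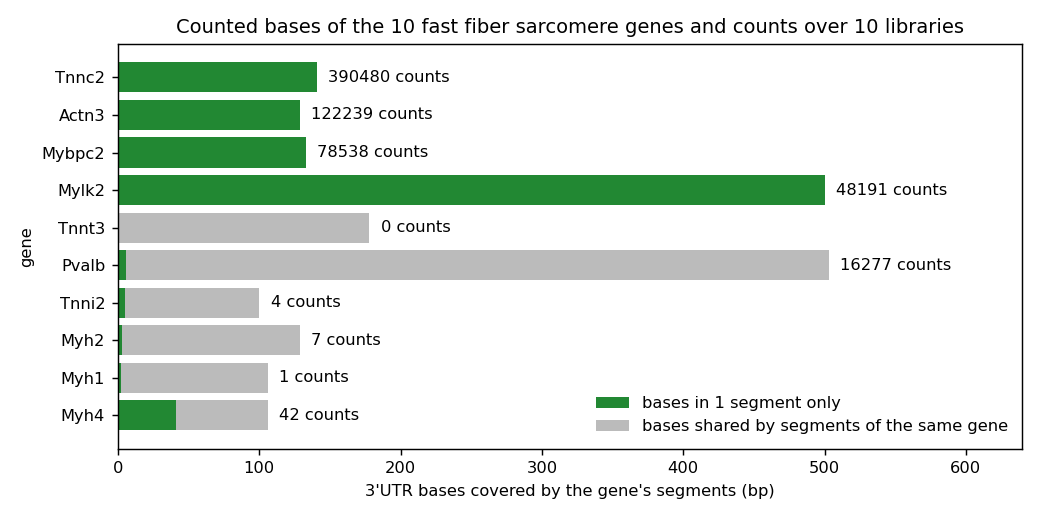
Counted sequence of the 10 fast fiber genes, as the bases covered by their segments (bp, horizontal axis) split into bases in a single segment and bases shared with another segment of the same gene, beside the total count over 10 libraries. Actn3, Mybpc2, Tnnc2 and Mylk2 have no shared base, while the 11 segments of Tnnt3 have only shared bases and 0 counts.

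Sequence from the other strand could enter some of these counts, because the sources used here name no strand option for the counting. The Tnnc2 segment overlapped exons of Ube2c on the opposite strand over 112 bp, and Ube2c itself held 54 counts in all 10 libraries against 390480 for Tnnc2. For Mybpc2 the overlap was 122 bp with Gm44646, and the segments of Myh1 and Myh2 lay across the antisense genes Myhas and 9430073C21Rik, none of which is in the table. Reads from these partners and from the fast genes cannot be told apart.

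Since the ASO binds miR-22, the counted 3′UTR sequence of the fast genes was searched for the complement of the miR-22-3p seed (bases 2 to 8, capitals in the first sequence, RefSeq), which is GGCAGCT in the mRNA. Only Tnnc2 held it, once, at base 51 of its 141 bp (chr2:164619165-164619171, minus strand, GRCm39, capitals in the second sequence).
mmu-miR-22-3p: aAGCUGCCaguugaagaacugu
Tnnc2 3′UTR: ccctgggcgtgGGCAGCTccacctttgct
Among all 7813 genes tested, 733 or 9.38% had such a match in their counted segments. Of the genes with a match 12.1% were higher and 20.5% lower with the ASO, and of those without, 11.7% and 17.1%. The match in Tnnc2 is a description of its sequence, and neither Actn3 nor Mybpc2, whose changes are given next, carried one.

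Of the 5 fast genes that had enough counts to be tested, 4 were higher with the anti-miR-22 ASO. Actn3 was 3.45-fold and Mybpc2 2.90-fold higher than in CTRL, the calcium-binding troponin Tnnc2 1.72-fold and the light chain kinase Mylk2 1.71-fold, and no fast gene fell. Pvalb stood 1.38-fold above CTRL and did not pass the test. Calls are those of edgeR at an adjusted p of 0.05 (quasi-likelihood fit, Benjamini-Hochberg over all genes), by which 920 genes (11.8%) were higher and 1363 (17.4%) lower. Of the 213 genes with counted segments of at most 150 bp, which include Actn3, Mybpc2 and Tnnc2, 44.6% were higher. DESeq2 called the same 4 fast genes, with 10.8% of all genes higher. The median log2 fold change of the 5 fast genes was 0.79, against -0.03 over all genes tested. The libraries held 1606491 to 2116297 counts on genes in CTRL and 2238864 to 2632214 in treated mice, and all 4 calls stayed when every library was thinned to the shallowest. In whole muscle, more fibers of a type and more RNA per fiber cannot be told apart.

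Actn3 gave the largest change of the 5. Its level, as CPM (counts scaled to a common library size, here by TMM), was 2074, 4054, 1666, 2123 and 2699 in CTRL replicates 1 to 5 and 9074, 8012, 10432, 3973 and 12043 in treated replicates 1 to 5. Thus 4 treated libraries lay far above every CTRL library, and treated replicate 4 lay just under the highest one, CTRL replicate 2. The log2 fold change was 1.79 (SE 0.31, n = 5 per group, edgeR adjusted p = 0.0015), the 7th largest of all genes tested.

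Mybpc2, its partner in size of effect, had the same lowest and highest library in each group. CTRL replicates 1 to 5 had 1827, 3071, 1139.9, 1367 and 1865 CPM, and the treated replicates 6103, 4738, 5981, 2968 and 7118 CPM. Again only treated replicate 4 fell below a CTRL library. The log2 fold change was 1.54 (SE 0.29, edgeR adjusted p = 0.0025), the 20th largest.

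Tnnc2 was the most abundant of the 10, at rank 4 of all genes by mean CPM. It stood at 14556, 18388, 9049.7, 11968 and 13135 CPM in CTRL and at 24171, 19803, 19671, 17360.2 and 34631 CPM in treated mice. The groups were closer than for Actn3, with treated replicates 2 and 3 only slightly above the highest CTRL library and treated replicate 4 below it. Its log2 fold change of 0.79 (SE 0.24, edgeR adjusted p = 0.029) did not pass the test when CTRL replicate 4, CTRL replicate 5, treated replicate 1 or treated replicate 5 was left out, with adjusted p between 0.052 and 0.072.

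Mylk2 had the narrowest spread in CTRL, with 1466, 1831, 1324, 1937 and 1768 CPM, against 2925, 2970.2, 3174, 1712 and 3486 CPM in treated mice. Again 4 treated libraries lay clear of CTRL, and treated replicate 4 lay inside the CTRL range. The log2 fold change was 0.78 (SE 0.20, edgeR adjusted p = 0.011).

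Pvalb overlapped most. CTRL had 517, 848, 468, 661 and 747 CPM, and the treated mice 1173, 1094, 649.6, 493 and 1058 CPM. Of the treated libraries 3 exceeded every CTRL library and the other two were inside the CTRL range, so that the log2 fold change of 0.46 (SE 0.25, edgeR adjusted p = 0.19) was not called. Without treated replicate 4 it was 0.65, with an adjusted p of 0.045.

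**Figure D2:**
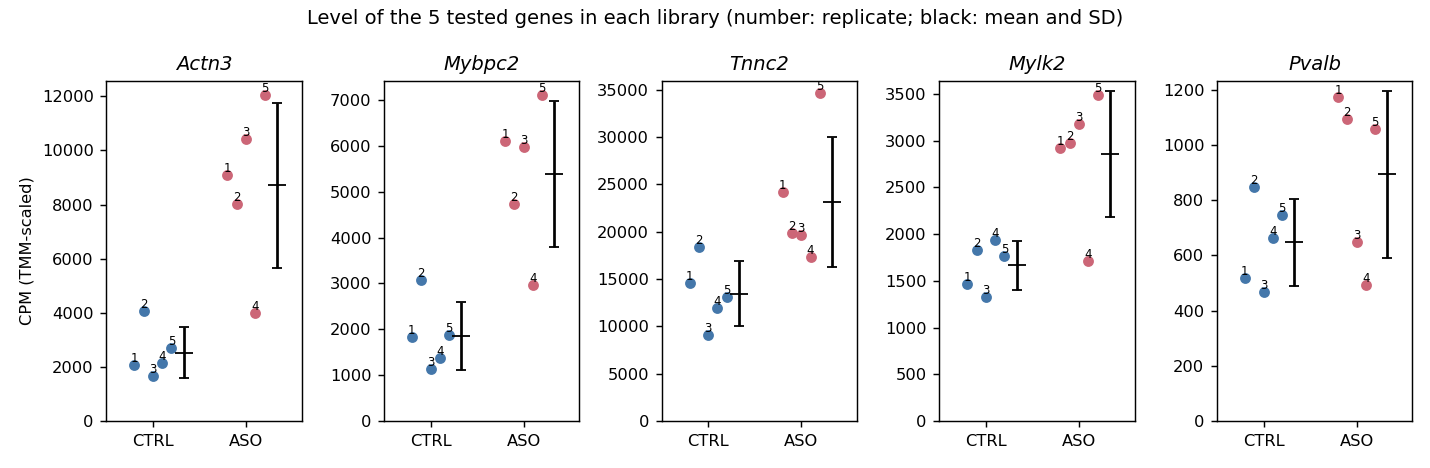
Level (CPM) of the 5 tested fast genes in every library, with 5 CTRL and 5 treated libraries as points, replicate numbers beside them and the group mean and SD in black. For Actn3, Mybpc2, Tnnc2 and Mylk2 the treated replicate 4 is the only treated library that does not exceed all of CTRL.

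Exact permutation tests over all labellings of the 10 libraries, two-sided and on log2(CPM + 1), gave p = 0.016 for Actn3, Mybpc2 and Tnnc2, p = 0.032 for Mylk2 and p = 0.19 for Pvalb, where 0.0079 is the smallest value possible. For none of the 5 genes did all treated libraries exceed all CTRL libraries, a separation that 7.97% of all genes reached. Of the myosins, Myh4 had 3, 2, 3, 1 and 3 counts in CTRL and 6, 9, 5, 4 and 6 counts in the deeper treated libraries. It lies below the filter on low counts, and although the groups did not overlap in counts, in CPM treated replicate 4 (1.67) lay just below CTRL replicate 5 (1.69). Its exact permutation p on log2(CPM + 1) was 0.016, and edgeR without the filter gave a log2 fold change of 1.12 (SE 0.53, adjusted p = 0.17), in a fit that called 5.87% of genes higher. The type IIB myosin was thus not called.

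The size of these changes was stable for Actn3 and Mybpc2 and less so for the others. Leaving out each library in turn moved the log2 fold change between 1.65 and 2.03 for Actn3, 1.40 and 1.80 for Mybpc2 and 0.70 and 0.94 for Mylk2, with all 3 called each time. For Tnnc2 it moved between 0.61 and 0.93. When each gene was represented by its most distal segment, which left the reads of these single-segment genes as they were and changed the other genes and the scaling, Actn3 and Mybpc2 (1.26) were called, whereas Tnnc2 (0.51, edgeR adjusted p = 0.17) and Mylk2 (0.49, adjusted p = 0.12) were not. Scaling to total counts moved the median of all genes from -0.03 to -0.21 and the split of calls from 920 higher and 1363 lower to 528 and 1819, and upper quartile scaling gave 1262 and 1206. The same 4 fast genes were called higher under both.

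**Figure D3:**
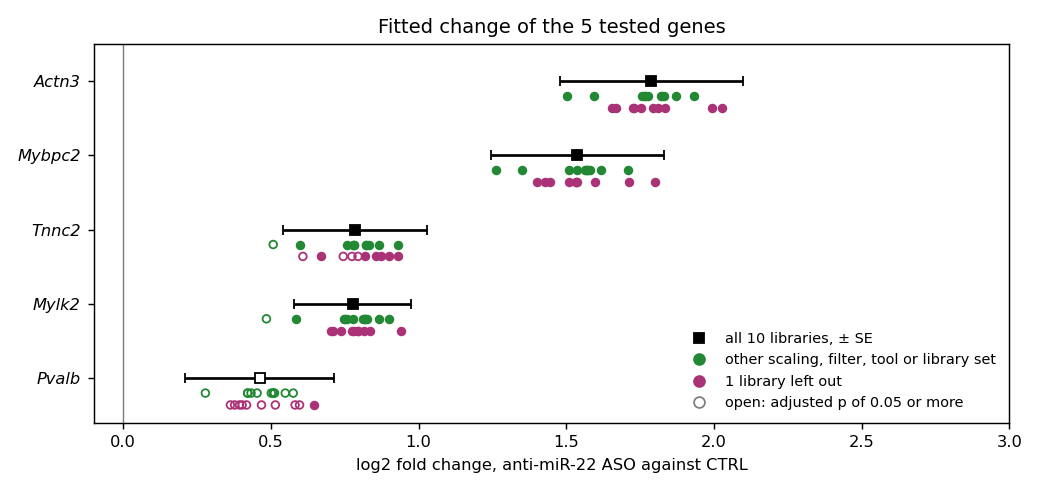
Log2 fold change, treated minus CTRL, of the 5 tested fast genes with bars of ± SE, beside the values with each library left out and under the other settings. Actn3 and Mybpc2 stay above 1 throughout, while Tnnc2 and Mylk2 lie between 0.49 and 0.94.

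Ratios between fast genes within a library do not depend on the scaling of libraries, and for some pairs of the 5 genes they differed between the groups. All 10 pairs were compared, a step chosen after the values were seen. The log2 ratio of Actn3 to Tnnc2 went from -2.44 ± 0.24 in CTRL to -1.46 ± 0.44 in treated mice (SD, n = 5 each), a difference of 0.99 (exact permutation p = 0.0079, adjusted p = 0.016 over 10 pairs). Against Mylk2 and Pvalb the Actn3 ratio rose by 1.01 and 1.34 (same p). The Mybpc2 ratio rose by 0.78 against Tnnc2 and by 1.14 against Pvalb (exact permutation p = 0.0079), and by 0.81 against Mylk2 (p = 0.016, adjusted p = 0.026). Thus Actn3 and Mybpc2 gained relative to Tnnc2, Mylk2 and Pvalb, which are single genes and do not stand for a class. The counted segments of Actn3 and Mybpc2 have 129 and 133 bp, that of Tnnc2 141 bp and those of Mylk2 and Pvalb 500 bp. Of the 503 bp under the segments of Pvalb, only 6 bp lie in a single segment. The part of segment length in these ratios was not tested. The 4 other pairs did not pass: Actn3 to Mybpc2 differed by 0.20 (exact permutation p = 0.087, adjusted p = 0.12), Tnnc2 to Mylk2 by 0.03 (p = 0.89), Tnnc2 to Pvalb by 0.36 (p = 0.13) and Mylk2 to Pvalb by 0.33 (p = 0.11).

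Per 100 bp of counted sequence the order of the genes with sequence of their own was the same in both groups. Tnnc2 had 9517 ± 2438 CPM per 100 bp in CTRL and 16402 ± 4884 in treated mice (SD, n = 5), followed by Actn3 with 1956 ± 722 and 6749.6 ± 2362. Mybpc2 came next with 1394 ± 561 and 4046 ± 1197, and Mylk2 last with 333 ± 51.8 and 571 ± 135. In each group the ranges of Actn3 and Mybpc2 overlapped, although Actn3 was above Mybpc2 on this scale in each of the 10 libraries. A read pair that reaches into a short segment from outside is counted too, which raises short segments relative to long ones on this scale.

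The 5 tested genes moved together between mice of the same group. CTRL replicate 3 was the lowest CTRL library for 5 of 5 genes and CTRL replicate 2 the highest for 4 of 5, with Mylk2 the exception. Treated replicate 4 was the lowest treated library for 5 of 5 and treated replicate 5 the highest for 4 of 5, with Pvalb the exception. As a result, the share of each library's counts that fell on the 10 genes ran from 1.55% to 2.86% in CTRL (median 2.10%) and from 2.69% to 5.03% in treated mice (median 3.59%). The only overlap was between treated replicate 4 and CTRL replicate 2. Tnnc2 alone made up 59.5% of these counts, Actn3 18.6%, Mybpc2 12.0%, Mylk2 7.35% and Pvalb 2.48%. In CTRL the TMM factor was largest in replicate 3 (1.15) and smallest in replicate 2 (1.02). In treated mice the TMM factor was largest in replicate 4 (1.02) and smallest in replicate 5 (0.87). The muscle genes Ckm and Atp2a1 were also lowest in CTRL replicate 3 and treated replicate 4, so this pattern is not particular to the 5 genes.

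Properties of the counted segments moved with the treatment as well. Among all genes whose longest counted segment had at most 150 bp, 44.6% of 213 were higher with the ASO and 7.51% lower, with a median log2 fold change of 0.61. With a length between 150 and 500 bp these shares were 22.0% and 8.52% of 915 genes, and with 500 bp they were 9.33% and 19.0% of 6685 genes, with medians of 0.24 and -0.09. Actn3, Mybpc2 and Tnnc2 are in the shortest class, where 1, 4 and 72 genes, respectively, had a larger log2 fold change. Mylk2 and Pvalb are in the 500 bp class, where 289 and 1001 genes had a larger one, although Pvalb has only 6 of its 503 bp in a single segment. The change of Tnnc2 was therefore close to the middle of its length class, whereas those of Actn3 and Mybpc2 were at its upper end. Mylk2 (0.777) lay above the 95% quantile of its own class (0.745). Abundance moved too, with 29.9% of the 117 genes at a mean of at least 1000 CPM higher and 8.55% lower, and the part of either property in the fast gene values was not tested.

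**Figure D4:**
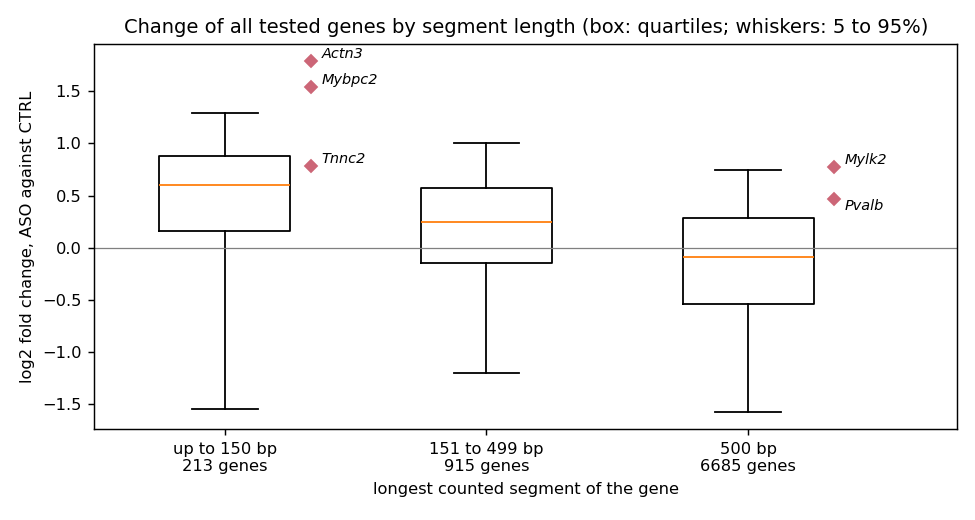
Log2 fold change, treated minus CTRL, by length of the longest counted segment, with the median and quantiles of all genes tested in each class and the 5 fast genes as points. Actn3 (1.79) and Mybpc2 (1.54) stand above the 95% quantile of 1.29 of the shortest class, and Tnnc2 (0.79) within its middle range. Mylk2 (0.777) stands above the 95% quantile of 0.745 of the 500 bp class.

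Whether the fast genes rose against their slow-twitch counterparts was examined within each library for the 4 of 8 paralog pairs that had at least 10 counts on both sides. Slow fibers use Tnnc1 and Myh7 in place of Tnnc2 and Myh4. Mybpc1 is the paralog of Mybpc2 named for slow muscle, while Actn2 is the alpha-actinin of all fibers. Tnnc1 varied widely, with 1883, 255, 244, 649 and 11 counts in CTRL and 1, 7, 939, 4921 and 157 counts in treated mice. The log2 ratio of Tnnc2 to Tnnc1 consequently spanned 3.08 to 15.03 and was 6.70 ± 2.70 in CTRL and 9.04 ± 4.89 in treated mice (SD, n = 5 each), a difference of 2.34 inside the spread (exact permutation p = 0.37, adjusted p = 0.50 over 4 pairs). The spread within each group exceeded the difference between them.

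Mybpc1 was steadier, with 75, 79, 48, 120 and 129 counts in CTRL and 23, 105, 281, 183 and 90 in treated mice. Its highest CTRL count was in replicate 5, beside 11 Tnnc1 counts, and its highest treated count in replicate 3, beside 939. The ratio below is therefore one of paralogs and not a measure of fast over slow fibers. The log2 ratio of Mybpc2 to Mybpc1 was 5.31 ± 0.84 and 6.82 ± 1.51 (difference 1.51, exact permutation p = 0.087, adjusted p = 0.17). Myh4 to Myh7 gave -2.35 ± 3.19 and -1.02 ± 4.96 (difference 1.32, exact permutation p = 0.65) on the few Myh4 counts. Because most counted bases of Myh4 are shared, the sign of this ratio does not tell which myosin was more abundant. For Actn3 to Actn2 the difference was 2.54 (exact permutation p = 0.016, adjusted p = 0.063), but Actn2 held only 11 counts in all, at most 3 per library, so that this ratio rests on a handful of Actn2 reads. No pair passed the adjusted threshold, and the pairs with Tnni2, Tnnt3, Myh1 and Myh2 could not be measured.

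**Figure D5:**
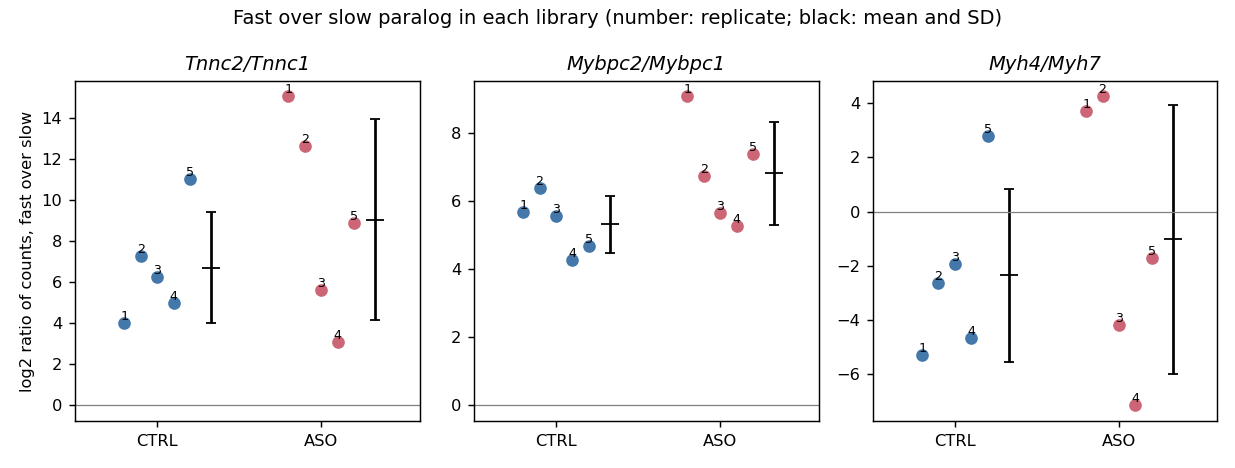
Log2 ratio of fast to slow paralog counts (0.5 added to each) in every library, CTRL beside treated, with group mean and SD. The pairs shown are Tnnc2/Tnnc1, Mybpc2/Mybpc1 and Myh4/Myh7, and the measured pair Actn3/Actn2 is not drawn. Treated replicate 4 has the lowest Tnnc2/Tnnc1 ratio (3.08) and treated replicate 1 the highest (15.03), so the treated group spans the CTRL group.

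The library with the lowest fast genes among treated mice thus held the most slow troponin C. Treated replicate 4 had 4921 Tnnc1 and 641 Myh7 counts, and in CTRL the most were in replicate 1, with 1883 and 135. When both libraries were left out together, a step chosen after the values were seen, the log2 fold changes were 1.93 for Actn3, 1.71 for Mybpc2, 0.93 for Tnnc2, 0.90 for Mylk2 and 0.58 for Pvalb, and the first 4 were called. CTRL replicate 3, with the lowest fast genes in CTRL, was the library with the highest summed level of the adipocyte markers Adipoq, Plin1, Cfd and Lep, at 4105 CPM in a CTRL range that began at 5.19, whereas treated mice ran from 36.8 to 1086 CPM. None of these markers was called. Without CTRL replicate 3 the same 4 fast genes were called. The part of adipose tissue or of slow fibers in the sampled piece of muscle was not tested beyond these values.

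Other genes of the fast contractile apparatus were read from a list of 12, of which 9 were tested, 3 were higher and 0 lower, with a median log2 fold change of 0.78. Over all genes tested, 11.8% were higher and 17.4% lower. The calcium pump of fast fibers Atp2a1 rose by 1.08 (SE 0.23, edgeR adjusted p = 0.0041), the M-band protein Myom2 by 1.12 (SE 0.25, adjusted p = 0.0063) and the Z-disc protein Myoz1 by 0.86 (SE 0.21, adjusted p = 0.0090). Tpm1, the fast alpha-tropomyosin, stood at 0.90 with an adjusted p of 0.055, and Casq1, the calcium store protein, at 0.12 with 0.70. Mylpf, the fast regulatory light chain that Mylk2 phosphorylates, had 0 counts, with 10 bp in a single segment, as did Tmod4 with 4 bp and Mybph with 2 bp.

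The slow contractile list had 9 of 12 genes tested, 1 higher and 0 lower, against 11.8% higher and 17.4% lower of all genes. Myl6b, a slow myosin light chain, rose by 1.72 (SE 0.56, edgeR adjusted p = 0.037). The median of the list was 1.24, above that of the fast genes, but with an SE of 1.29 for Myh7, 1.27 for Myl2 and 1.41 for Tnnc1 these values are far less certain than that of Actn3. Of the developmental genes only Myl4 was tested, at 0.43 and not called. Higher values of fast genes were therefore not accompanied by lower calls in any slow contractile gene tested.

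Factors that control fast genes changed in both directions. Of 18 on the list 16 were tested, 3 higher and 6 lower, with a median of 0.10. Of all genes tested, 11.8% were higher and 17.4% lower. The myogenic factor Myog rose by 2.16 (SE 0.29, edgeR adjusted p = 0.00037), Purb by 1.65 (SE 0.16) and Mafa, one of the large Maf factors of type IIB fibers, by 1.21 (SE 0.29). The lower genes were Tead1 at -3.90 (SE 0.51), Mef2c at -3.04 (SE 0.31), Dach2 at -1.94 (SE 0.46) and Eya1 at -1.36 (SE 0.21), with Esrrg at -1.43 and Six4 at -0.60. Transcript levels of these factors do not show their activity.

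Promoters from 250 bases before to 50 after the start were at hand in RefSeq (GRCm38.p6) for 6 of the 10 genes, in 7 windows out of 32851, and were searched for letters that muscle factors bind. Matches are printed for the called genes Tnnc2 and Mybpc2 and for the 3 genes with a MEF2 match, Myh1, Myh4 and Pvalb, none of which was called. The E-box CACCTG, on either strand, was in the windows of Tnnc2, 183 bases before the start (chr2:164779912-164779917), and of Mybpc2, 157 bases before (chr7:44524821-44524826) and 8 bases after it, and in 20.2% of all windows.
Tnnc2 E-box: cagagagtgcCACCTGctccgaagct
Mybpc2 upstream E-box: ggtgcttagaCACCTGagtctgtgga
The MEF2 motif (on either strand, capitals) was in the windows of Myh1, Myh4 and Pvalb and in 3.19% of all windows.
Myh1 MEF2: acaactcaaaTTATTTATAGgagattgatt
Myh4 MEF2: ccctgtcaaaTTATTTATAGatgacaagaa
Pvalb MEF2: aggccaagggTTATTAATAGgcctggctca
They lay 211 bases before the start of Myh1 (chr11:67199891-67199900), 182 before that of Myh4 (chr11:67237630-67237639) and 180 before that of Pvalb (chr15:78206571-78206580). A TATAAA stood 32 bases before the start of Myh1, 31 and 213 before that of Myh4 and 10 after that of Myh2 (8.32% of all windows, sense strand only), while CAGCTG was in the Myh4 window alone (16.3%) and TCAGGTT in none of the 7 (4.07%). The motif matches describe the sequence, and none of the windows of the called genes Tnnc2 and Mybpc2 held the MEF2 letters.

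Markers of muscle itself were as the tissue label says, with Ckm, the muscle creatine kinase, at 19251 ± 4623 CPM in CTRL and 36672 ± 8563 in treated mice (SD, n = 5) and Acta1, skeletal actin, at 39783 ± 9046 and 59136 ± 5609. Ckm (log2 fold change 0.93, SE 0.23, edgeR adjusted p = 0.011) and Ttn (1.41, SE 0.21) were higher like the fast genes, while Acta1 (0.57) had an adjusted p of 0.058. Ryr1 and Mb had 0 counts, with 0 and 4 bp in a single segment, and Des held 35 counts. Of the other cell types, 1 of 3 tested macrophage markers was lower, 1 of 2 satellite cell markers and 1 of 2 smooth muscle markers were higher, and none of the endothelial, fibro-adipogenic, adipocyte, Schwann or blood markers was called. Among all genes tested the shares were 11.8% higher and 17.4% lower. The part of these cell types in the values of the fast genes was not tested.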

How the data were processed

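The authors deposited raw counts. Reads were trimmed (fastp), mapped to GRCm39 (STAR) and counted as pairs (featureCounts of Subread) on the last 500 bp of Gencode M25 3′UTRs. The strand option of the counting is not given in the sources used here. Values were taken from the columns of 10 libraries, and 4 further columns of other samples were not used. Segments were assigned to genes with GENCODE M39 and summed per gene. Of 52423 segments 62 were not found there (0.0197% of the counts).

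Tests across genes used R 4.3.3 and edgeR 4.0.16 (TMM, filter on low counts by group, quasi-likelihood test, Benjamini-Hochberg adjustment over 7813 genes), and the SE is the log2 fold change divided by the root of F. Fold changes are treated over CTRL, and coordinates are 1-based. DESeq2 1.42.0, which the authors used with default settings, and limma 3.58.1 were alternatives. Single values and ratios were compared by exact permutation, two-sided, over each possible labelling of the libraries. Python 3.11.15, pandas 2.3.3, scipy 1.17.1 and matplotlib 3.10.9 served for the rest. The fits were tested on simulated data. The labels list each library as a separate sample, and p-values measure only the spread between these samples.

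The genes and lists were chosen with earlier results of these data known. Named are the 10 fast genes, the slow paralogs, up to 6 genes of each list by smallest adjusted p, and the 6 genes whose variation within groups was most like that of the fast genes. Other genes were named after their values were seen.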

Additional observations from a re-analysis of the deposited data

Results flagged for a closer look

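Levels of the 5 tested fast genes, of Myh4 and of the slow Tnnc1, Mybpc1 and Myh7, the 4 paralog ratios and the share of counts on the fast genes were checked in each group for a library far from the other 4, by the gap to the nearest library over the range of the group (above Dixon's critical value) in 28 checks, of which chance gives about 1 in 20. No fast gene was singled out. Both values that were belong to slow genes of treated replicate 4: Tnnc1 stood there at 2054 CPM, with 397 CPM in the next treated library, and Myh7 at 268 CPM, with 42.3 CPM in the next. The same library held the lowest level of Actn3, Mybpc2, Tnnc2, Mylk2 and Pvalb among treated mice.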

How the results depend on the processing

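No log2 fold change or paralog ratio of a fast gene changed sign, whereas the median of all genes went from -0.03 to 0.06 with upper quartile scaling. Actn3 and Mybpc2 were called in every fit that tested them. With the most distal segment of each gene, 232 genes were called higher and 335 lower among 5087 tested, and 2 fast genes higher, with Tnnc2 at 0.51 and Mylk2 at 0.49. Total counts gave 528 higher. Leaving out the 20 most abundant genes left 1 fast gene called higher, Mylk2, because Actn3, Mybpc2 and Tnnc2 are among the 20. Leaving out each library gave 3 to 5 fast genes called, 692 to 1021 genes higher and 1127 to 1369 lower, log2 fold changes of 0.61 to 0.93 for Tnnc2 and 0.36 to 0.65 for Pvalb, and log2 ratio differences of 0.94 to 1.89 for Mybpc2 to Mybpc1, the last without treated replicate 4 (exact permutation p = 0.048). The lowest and highest differences were 0.85 (without treated replicate 1) and 3.83 (without treated replicate 4) for Tnnc2 to Tnnc1, 0.0027 (without treated replicate 2) and 2.85 (without treated replicate 4) for Myh4 to Myh7, and 0.94 for Mybpc2 to Mybpc1 without treated replicate 1. With the most distal segment Tnnc2 to Tnnc1 differed by 1.32, and with total counts Pvalb stood at 0.28. The cause was not tested. DESeq2 called the same 4 fast genes, beside 1111 genes higher and 1478 lower. Replicate numbers did not pair the libraries (correlations of -0.43, 0.06, 0.05, 0.06 and 0.16). With the replicate block 662 genes were higher and 1172 lower, 4 fast genes were called higher, and the Actn3 to Actn2 difference of 2.54 had an exact permutation p of 0.0625, the smallest 5 pairs allow. Few counts limit Myh4 and Actn2, and Tnni2, Tnnt3, Myh1 and Myh2 have at most 5 bp in a single segment. Pvalb has 6 of its 503 bp in a single segment.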

Other observations

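Genes whose levels varied between mice of the same group most like the 5 tested fast genes were Lbx1 (Pearson r = 0.98), Selenow (0.98), Myoz1 (0.97), Ckm (0.97), Ywhae (0.95) and Tab2 (0.95), over 10 libraries after each group's mean was removed. The values are a description, since the libraries share their scaling and treated replicate 4 and CTRL replicate 3 are low for each fast gene. The fast genes themselves had r between 0.86 for Pvalb and 0.96 for Actn3, with Mybpc1 at -0.17 and Tnnc1 at -0.47. All 6 genes were higher with the ASO, by log2 fold changes of 0.74 for Lbx1, a homeobox factor of muscle precursors, 0.82 for Selenow, a selenoprotein abundant in muscle, 0.86 for Myoz1, 0.93 for Ckm, 0.63 for Ywhae and 0.66 for Tab2, with edgeR adjusted p between 0.0090 and 0.018. These changes lie below those of Actn3 (1.79) and Mybpc2 (1.54) and near that of Tnnc2 (0.79).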
